A study of Mus musculus with 3 samples.

Results

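Nav2, Cdkal1, Gse1 and Maml3 are among the mouse genes with the most binding sites of TBX5 in the fetal heart. They were chosen by that number, so the number of summits is no finding. A summit, the position of highest signal in a peak, was counted for a gene when it lay in the RefSeq gene body or within 10 kb of it on the mm10 build. By this rule the 4 genes held 73 of the 12436 deposited peaks. The study precipitated TBX5 from chromatin of E14.5 hearts of CD-1 embryos, an outbred mouse stock, and the labels name no genotype or treatment. Its groups are TBX5_ChIP, of 2 biological replicates (5 µg of antibody to TBX5), and TBX5_Input, of 1 sample. The peaks were called by the authors on the pooled TBX5 samples, so no value of a peak exists for a single replicate and no spread between replicates can be given. Hearts hold many cell types, and the peaks do not tell in which of them a site was bound. No expression was measured, so the tissue could not be checked against marker genes.

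TBX5, a T-box protein, controls transcription as heart and forelimb form, and its loss of function in people causes Holt-Oram syndrome. T-box factors bind a short DNA element whose core is AGGTGT, and TBX5 and TBX3, a T-box repressor of the conduction system, can recognise the same element. Distal regions that regulate genes often carry H3K4me1. Active regions carry H3K27ac and often H3K9ac, while H3K4me3 is highest at active gene starts and H3K27me3 marks Polycomb repression. The 4 genes have unlike functions. Nav2 encodes a neuron navigator, a large protein of the cytoskeleton needed for outgrowth of nerve processes. Cdkal1 encodes an enzyme that adds a methylthio group to a transfer RNA, and its introns hold variants linked to type 2 diabetes in people. Gse1 encodes a coiled-coil protein of complexes that hold the histone demethylase LSD1, the corepressor CoREST and histone deacetylases. Maml3 encodes a mastermind-like coactivator of Notch signalling.

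The values that chose the members are given as a description. Nav2 (chromosome 7, 48959063 to 49610090) had 21 summits, the most of the 21523 protein-coding genes examined. Cdkal1 (chromosome 13, 29191746 to 29855683) had 19, Gse1 (chromosome 8, 120228501 to 120581383) had 17 and Maml3 (chromosome 3, 51687320 to 52105319) had 16. Only 7 protein-coding genes (0.0325%) had at least 16 summits, while 30.1% had at least 1. The remaining 3 of these 7 are Esrrg with 19, Cacna1c with 16 and Rbm20 with 16, which are not members although their counts equal or pass that of Maml3. No gene had 15 summits, and Ror1 and Tns1, with 14 each, stood just below. At 14 or more the share was 0.0418%.

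Few summits lay outside the gene bodies. The 10 kb added on each side was a small part of each window (373 to 684 kb), so this shows no preference for gene bodies. All 16 summits of Maml3 were inside the body, as were 20 of 21 in Nav2, 17 of 19 in Cdkal1 and 16 of 17 in Gse1. All 4 are long genes, with bodies of 651 kb (Nav2), 664 kb (Cdkal1), 353 kb (Gse1) and 418 kb (Maml3). Per 100 kb of the extended gene, Gse1 had 4.56 summits, Maml3 3.65, Nav2 3.13 and Cdkal1 2.78. Among the 9 genes with at least 14 summits these densities stood at ranks 3, 5, 6 and 8, and Rbm20 had the highest with 7.08. Because the members were chosen for their counts, the counts of genes of like length are given only as a description. The 4 members were left out of these genes, although Nav2 and Cdkal1 are close to each other in length. The 20 other protein-coding genes nearest to Nav2 in length had a median of 1 summit (range 0 to 16, Cacna1c highest). The 20 nearest to Cdkal1 also had a median of 1 (0 to 11, Ppargc1a highest). For Gse1 the median was 0.5 (0 to 14, Ror1 highest) and for Maml3 2.5 (0 to 9, Tln2 highest).

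**Figure D1:**
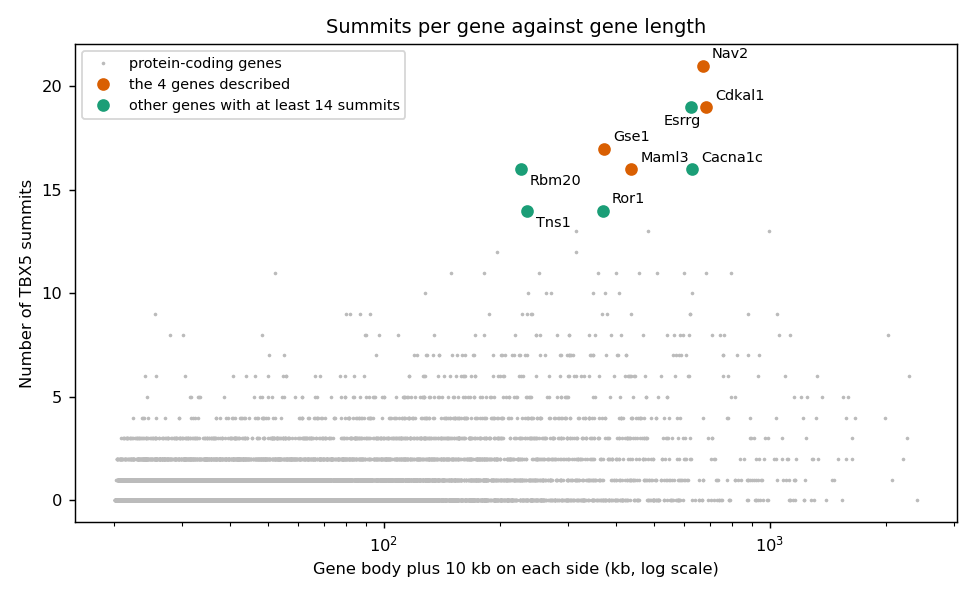
Number of TBX5 summits (vertical axis) against the length of the gene body plus 10 kb on each side in kb (horizontal axis, log scale) for 21523 protein-coding genes (grey points), with the 4 genes in orange and the other genes with at least 14 summits in green. Nav2 lies highest at 21, and many genes as long as it lie at 0 or 1.

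Promoter sequences are shown for the starts that a TBX5 summit fell on, and for the only start of Cdkal1, which had no summit near it. RefSeq (GRCm38.p6, the assembly that mm10 names) lists 7 promoter windows of these genes in the table used, namely 3 of Gse1, 2 of Nav2 and 1 each of Cdkal1 and Maml3. A summit lay inside 3 of the 7. Each line gives the 250 bases before a start, 5′ to 3′ on the strand of the gene, in lower case, with the T-box core AGGTGT or its reverse complement ACACCT in capitals.
Gse1, + strand, chr8:120535607-120535856: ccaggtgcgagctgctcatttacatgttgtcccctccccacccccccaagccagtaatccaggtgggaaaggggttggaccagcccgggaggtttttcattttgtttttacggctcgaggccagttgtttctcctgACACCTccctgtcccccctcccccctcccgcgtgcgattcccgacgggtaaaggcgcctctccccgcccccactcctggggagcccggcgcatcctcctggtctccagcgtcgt
Gse1, + strand, chr8:120537159-120537408: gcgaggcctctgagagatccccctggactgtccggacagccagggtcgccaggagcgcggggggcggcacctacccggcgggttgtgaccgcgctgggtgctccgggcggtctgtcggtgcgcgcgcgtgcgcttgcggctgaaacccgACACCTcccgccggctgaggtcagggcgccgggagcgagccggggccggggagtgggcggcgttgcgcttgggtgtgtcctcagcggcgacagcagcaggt
Maml3, - strand, chr3:52105007-52105256: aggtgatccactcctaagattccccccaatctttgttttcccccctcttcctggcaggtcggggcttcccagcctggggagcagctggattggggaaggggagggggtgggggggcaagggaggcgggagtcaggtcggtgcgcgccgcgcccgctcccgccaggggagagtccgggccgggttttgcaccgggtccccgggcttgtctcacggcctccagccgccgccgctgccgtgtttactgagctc
Cdkal1, - strand, chr13:29855674-29855923: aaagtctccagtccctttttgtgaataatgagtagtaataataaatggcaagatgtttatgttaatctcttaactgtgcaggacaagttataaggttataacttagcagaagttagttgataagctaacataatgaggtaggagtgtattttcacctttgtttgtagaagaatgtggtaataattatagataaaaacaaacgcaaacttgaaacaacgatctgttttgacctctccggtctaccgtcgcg

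The T-box core occurred at 1 place in each of the Gse1 sequences and in neither of the others. At the Gse1 start at 120535857 it lay at 120535743 to 120535748, 20 bp from the summit, and at the start at 120537409 it lay 77 bp from the summit. Both matches were inside the called peak. In the full RefSeq window of 300 bases, which reaches past the start, the second Gse1 promoter held 2 copies. Searched on both strands, the core occurred in 11.8% of all 32851 RefSeq promoter sequences of this length and in 15.7% of the 1378 with a TBX5 summit in their window. The GATA word AGATAA, the E-box CACGTG and the TEAD word GGAATG were absent from all 7 windows except for 1 GATA word in the Cdkal1 sequence. These words occurred in 9.99%, 6.02% and 12.6% of all promoter sequences, and in 5.01%, 10.5% and 9.94% of those with a summit in their window. G and C bases made up 63.6% and 74.8% of the Gse1 sequences, 69.2% of the Maml3 sequence and 34.4% of the Cdkal1 sequence. A match of letters is a description and does not show a bound site.

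Nav2 carried its summits in stretches separated by long gaps. The first summit lay 9612 bp before the start at 48959073 with 8.86-fold enrichment (5.64 to 13.3), and no other followed for 106 kb. The fold is the authors' value for the peak, its ChIP signal divided by the local background. A group of 13 summits then lay between 96.3 and 289 kb from the 5′ end of the gene body. Its strongest, at 49145636 to 49146184, had 20.5-fold enrichment (95% Poisson interval of the fragment count 16.6 to 25.1) from 92 fragments and overlapped H3K4me1, H3K27ac and a TBX3 region. It held 16.3% of the fragments summed over the 21 Nav2 summits and was the only one with at least 10-fold enrichment. The interval covers counting error of pooled fragments only.

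**Figure D2:**
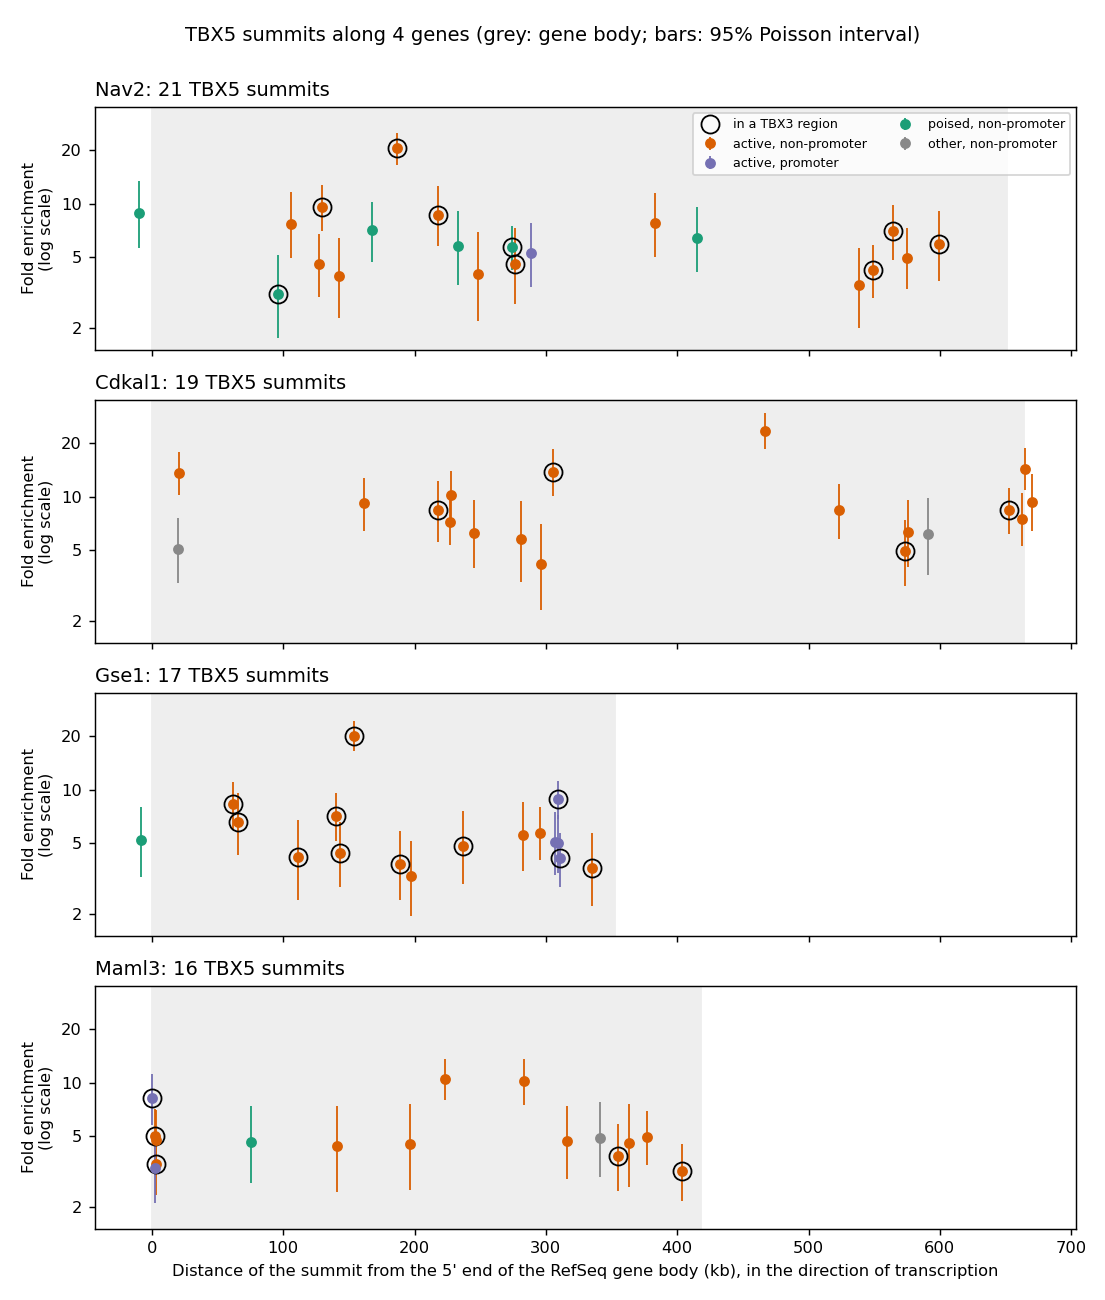
Fold enrichment (vertical axis, log scale) of each TBX5 summit against its distance from the 5′ end of the gene body in kb (horizontal axis) in Nav2, Cdkal1, Gse1 and Maml3. Grey marks the gene body, bars the 95% Poisson interval of the fragment count, colours the authors' chromatin class and black rings the summits in TBX3 regions. Each of Nav2, Cdkal1 and Gse1 has 1 summit of at least 20-fold, and the highest in Maml3 is 10.5-fold.

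The weakest Nav2 summit, of 3.09-fold (1.75 to 5.13) from 13 fragments at 49055268 to 49055578, opened this group. It too overlapped a TBX3 region, together with H3K4me1 but not H3K27ac. The only promoter-class summit of Nav2, the authors' class for peaks at most 2000 bp from a start, closed the group. It lay 1851 bp past the internal start at 49246189 and had 5.23-fold enrichment (3.40 to 7.75) and H3K4me1, H3K4me3, H3K9ac and H3K27ac. After 93.9 kb without a summit came a pair at 383 and 415 kb, of 7.74-fold and 6.40-fold. A gap of 123 kb followed, and the last 5 summits lay between 538 and 599 kb with 3.46-fold to 6.98-fold enrichment. All 5 carried H3K27ac, and 6 of the 16 before them did not, where 73.5% of all peaks had the mark. The groups were set by the gaps seen, and their difference was not tested. The authors' distances point 8 of the 21 summits to the internal start at 49246189 and only 1 to the start at 48959073. They point 11 to shared positions, taken as starts, that the RefSeq table used here does not list and 1 to Dbx1, the gene beyond the 3′ end. Of the 21 summits, 8 also lay inside annotated long noncoding RNA genes, 5 of them in Gm32849 and 2, including the strongest, in 9130015G15Rik.

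TBX3 regions covered 9 of the 21 Nav2 summits, with enrichment from 3.09-fold to 20.5-fold. Besides the strongest, these included a 9.52-fold summit at 49088213 to 49088880 with H3K9ac and an 8.66-fold summit (5.77 to 12.5) at 49176909 to 49177117. The remaining 6 had at most 6.98-fold enrichment. The 12 Nav2 summits outside TBX3 regions reached at most 8.86-fold, so the TBX3 group held both the strongest and the weakest Nav2 summit. The ranges overlapped, and the median fold was 5.91 inside and 5.50 outside.

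Cdkal1 had the strongest summits of the 4 genes as a group, none of them at a promoter. Its folds ranged from 4.17 to 23.5 with a median of 8.36, against 5.77 in Nav2, 5.07 in Gse1, 4.66 in Maml3 and 5.67 over all peaks. Of its 19 summits 16 lay above the median of all peaks, compared with 12 of 21 in Nav2, 6 of 17 in Gse1 and 3 of 16 in Maml3. The strongest, at 29388941 to 29389304, had 23.5-fold enrichment (18.5 to 29.6) from 72 fragments. It stood 467 kb into the gene with no other summit for 56.3 kb on its 3′ side and 161 kb on its 5′ side. It carried H3K4me1 and H3K27ac, but no H3K9ac and no TBX3 region. Folds of at least 10 occurred in 5 of 19 Cdkal1 summits, 2 of 16 in Maml3 and 1 each in Nav2 and Gse1, and in 16.7% of all peaks. Folds of at least 20 occurred at 1 summit each in Nav2, Cdkal1 and Gse1 and at none in Maml3, and in 4.07% of all peaks. A −log10 q of at least 10 was reached by 32 of the 73 summits (43.8%), 12 of them in Cdkal1, 10 in Nav2, 6 in Gse1 and 4 in Maml3, and by 41.5% of all peaks.

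The summits of Cdkal1 lay in groups with wide gaps between them. Near the 5′ end a pair lay 20.3 and 20.9 kb inside the gene, only 652 bp apart. The stronger had 13.6-fold enrichment (10.2 to 17.8), H3K4me1 and H3K27ac, and its neighbour had 5.08-fold (3.26 to 7.57) and no mark at all. No summit followed for 141 kb. Between 162 and 305 kb lay 8 summits, the strongest of 13.8-fold (10.0 to 18.5) at 29549831 to 29550555, the widest peak of the 73 at 725 bp. The strongest summit and 4 others of 4.93-fold to 8.36-fold lay between 467 and 591 kb. At the 3′ end 4 summits of 7.50-fold to 14.4-fold lay between 653 and 670.0 kb from the 5′ end, the last 2 of them beyond the end of the body.

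No summit lay close to the Cdkal1 start. The closest was 20248 bp from it, and 10 of the 19 were assigned to it by the authors' distances, at up to 305280 bp. The other 9 pointed to a shared position at 29016255, outside the gene, which was taken as a start but is not in the RefSeq table used here. The adjacent protein-coding genes lay 238047 bp (Sox4) and 50892 bp (E2f3) away, both of which encode transcription factors, so no other coding gene reached the window. TBX3 regions covered 4 of 19 Cdkal1 summits, of 13.8-fold, 8.40-fold, 8.38-fold and 4.93-fold. The weakest Cdkal1 summit had 4.17-fold (2.31 to 7.04) from 12 fragments at 29559411 to 29559610.

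Gse1 had the densest set of summits and the most overlap with TBX3 regions. Its folds ranged from 3.25 to 20.1. The strongest summit, at 120382563 to 120382915, had 20.1-fold enrichment (16.5 to 24.3) from 106 fragments, the highest fragment count of the 73, and stood 154 kb into the gene with H3K4me1, H3K27ac, H3K9ac and TBX3. The next had 8.83-fold (6.83 to 11.2), so a single summit stood above the other 16. The weakest had 3.25-fold (1.94 to 5.15) from 16 fragments at 120425774 to 120425950. The summit before the gene, of 5.20-fold (3.24 to 7.98) and inside the noncoding gene A330074K22Rik, was the only one of Gse1 without H3K27ac.

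A run of 4 promoter-class summits spanned 3289 bp inside Gse1, at 307 to 311 kb from the 5′ end of the gene body. The first, of 5.07-fold (3.29 to 7.50), lay 131 bp before the internal start at 120535857, and the second, of 8.83-fold, lay 21 bp before the start at 120537409. The third had 5.02-fold (3.37 to 7.23) and lay 630 bp past the same start. The last, of 4.09-fold (2.84 to 5.73), was assigned to Mir7687, a microRNA gene within Gse1, 319 bp from its start. All 4 overlapped H3K4me3, H3K9ac and H3K27ac, and the second and the last overlapped TBX3 regions. The third internal start listed by RefSeq, at 120488866, had no summit within 22398 bp, although the authors' distances assigned 7 summits to it. A further 4 pointed to A330074K22Rik, whose start lies beside the 5′ end of Gse1, and 1 distance matched no listed start on either strand.

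Maml3 had the weakest summits, packed most tightly at its start. Folds ranged from 3.17 to 10.5, and only 3 passed the median of all peaks. The strongest lay deep in the gene, at 51882149 to 51882599 (10.5-fold, 7.97 to 13.6, 55 fragments) and at 51821603 to 51821925 (10.2-fold, 7.46 to 13.5, 45 fragments), at 223 and 284 kb from the 5′ end. Both carried H3K4me1 and H3K27ac and neither H3K9ac nor TBX3. The third, of 8.16-fold (5.78 to 11.2), lay 17 bp past the start, and its peak covered all 250 bases of the Maml3 sequence printed above.

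The summit at the Maml3 start belonged to a run of 5 within 3058 bp, at gaps of 274 to 1895 bp. Their folds were 8.16, 3.31, 4.98, 3.47 and 4.72 in order from the start. All 5 carried H3K4me3, H3K9ac and H3K27ac, and 3 overlapped TBX3 regions. Only the 2 nearest the start fell in the authors' promoter class, and the others lay 2356 to 3075 bp past it. No summit followed until 75.5 kb. The weakest Maml3 summit, of 3.17-fold (2.15 to 4.50) at 51701491 to 51701668, was near the 3′ end and had the highest background of the 73, 8.48 fragments. By distance, 7 summits were assigned to the Maml3 start and 2 to Mgst2, a neighbouring gene 4645 bp from the 3′ end. The other 7 pointed to a shared internal position at 51796535, taken as a start, that the table used does not list.

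Spacing was uneven in each gene. Median distances between neighbouring summits were 17.2 kb in Nav2, 15.4 kb in Cdkal1, 12.2 kb in Gse1 and 24.8 kb in Maml3. If the same summits were spread evenly over the window, the distances would be 30.5, 34.2, 20.7 and 25.8 kb. This even distance is a kind of mean, and randomly placed summits can also have a median below it. Clustering was not tested. Observed distances ran from 1.93 to 123 kb in Nav2, from 0.652 to 161 kb in Cdkal1, from 0.651 to 69.6 kb in Gse1 and from 0.274 to 72.1 kb in Maml3. Another summit lay within 10 kb of 13 of the 19 summits in Cdkal1 (68.4%), 10 of 17 in Gse1 (58.8%), 7 of 16 in Maml3 (43.8%) and 6 of 21 in Nav2 (28.6%), against 32.9% of all peaks. Close neighbours are part of a high count, so this was not tested. Nav2, with the highest count, thus had fewer close neighbours than Cdkal1 and lay near the level of all peaks. When summits within 2 kb of each other were counted once, a setting chosen after the data were seen, Nav2 kept 20 sites, Cdkal1 16, Gse1 14 and Maml3 12. Among all protein-coding genes counted in this way, Nav2 ranked 1, Cdkal1 3, Gse1 tied at 5 and Maml3 tied at 9.

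**Figure D3:**
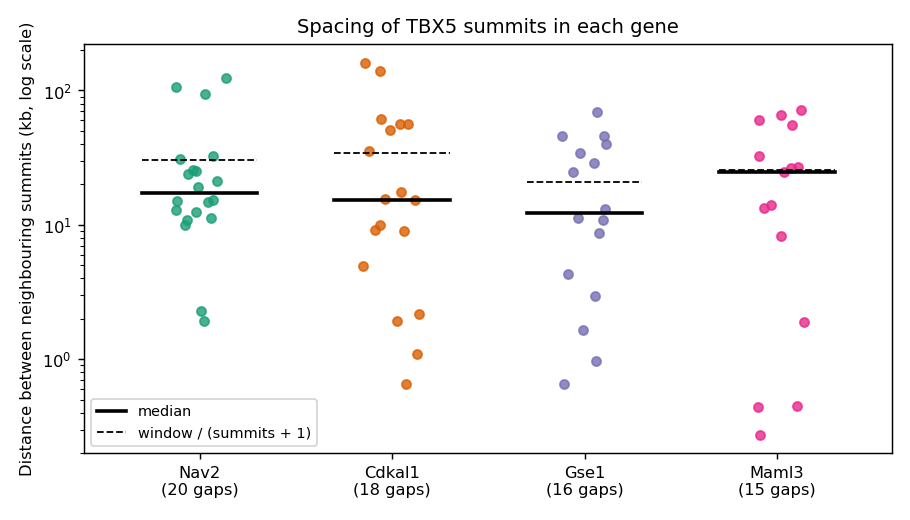
Distance between neighbouring TBX5 summits in kb (vertical axis, log scale) in each of the 4 genes (points), with the median (solid line) and the even spacing given by the window length divided by the number of summits plus 1 (dashed line). The medians lie below the even spacing in Nav2, Cdkal1 and Gse1, and beside it in Maml3, whose 4 shortest distances are those of the run at its start.

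Histone marks and TBX3 regions were not used to choose the genes. They come from other experiments (the marks from ENCODE region files), and of what tissue and stage they are is not stated in the labels or files used. Summits of 1 gene share their neighbourhood and are not replicates, so shares are given beside those of all peaks without a test, with exact Clopper-Pearson 95% intervals that cover counting error only. Of the 73 summits 62 (84.9%, 74.6 to 92.2) overlapped H3K27ac, against 73.5% of all peaks, and 65 (89.0%, 79.5 to 95.1) overlapped H3K4me1, against 72.3%. These count a summit marked in either of a pair of region files. Both files marked H3K4me1 at fewer summits, 16 of 21 in Nav2, 10 of 19 in Cdkal1, 13 of 17 in Gse1 and 10 of 16 in Maml3. No such share is given for all peaks. As 66 of the 73 were non-promoter peaks, all 5236 non-promoter peaks inside coding gene bodies, members included, were set beside them. Of those, 70.4% had H3K27ac and 86.3% had H3K4me1, beside 83.3% (72.1 to 91.4) and 90.9% (81.3 to 96.6) of the 66. Promoter-class summits made up 7 of the 73 (9.59%), against 24.6% of all peaks. None of the 73 overlapped H3K27me3 or H3K9me3, which mark 1.63% and 0.241% of all peaks, so that an absence among 73 carries little information.

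Among the members, Nav2 had the lowest share of H3K27ac, near that of all peaks (73.5%). There 15 of 21 summits had the mark (71.4%, 47.8 to 88.7), beside 17 of 19 in Cdkal1 (89.5%, 66.9 to 98.7), 16 of 17 in Gse1 (94.1%, 71.3 to 99.9) and 14 of 16 in Maml3 (87.5%, 61.7 to 98.4). These intervals overlap. The 6 Nav2 summits without H3K27ac all had H3K4me1 in either file of the pair, not always in both, and were placed in the authors' poised class. Summits without any mark numbered 2 in Cdkal1, 1 in Maml3 and none in Nav2 and Gse1. Poised summits numbered 1 each in Gse1 and Maml3 and none in Cdkal1. Together 8 of the 73 summits were poised (11.0%), against 14.2% of all peaks and 18.5% of non-promoter peaks in coding gene bodies. The summits without any mark were in the authors' class Other, which held 3 of the 73 (4.11%) and 10.7% of all peaks.

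Among the marks shown, H3K9ac had the widest range of shares. It lay at 14 of 17 summits in Gse1 (82.4%, 56.6 to 96.2) and 12 of 16 in Maml3 (75.0%, 47.6 to 92.7), but at 5 of 21 in Nav2 (23.8%, 8.22 to 47.2) and 3 of 19 in Cdkal1 (15.8%, 3.38 to 39.6), against 46% of all peaks and 34.5% of non-promoter peaks in gene bodies. The intervals of the first pair of genes do not overlap those of the second, though Maml3 and Nav2 nearly meet (47.6 and 47.2). These intervals treat neighbouring summits as separate. The runs of 4 summits in Gse1 and 5 in Maml3, all with H3K9ac, were counted summit by summit. Without the promoter class the order was the same, with 10 of 13 in Gse1 (76.9%), 10 of 14 in Maml3 (71.4%, 41.9 to 91.6), 4 of 20 in Nav2 (exact interval 5.73% to 43.7%) and 3 of 19 in Cdkal1, and the interval of Maml3 then overlapped that of Nav2. H3K4me3 lay at 8 of 16 summits in Maml3, 5 of 17 in Gse1 and 3 of 21 in Nav2. In Cdkal1 it lay at 0 of 19 (exact upper limit 17.6%). The mark lay at 31.8% of all peaks, but at 12.1% of non-promoter peaks in gene bodies. Without the promoter class it lay at 6 of 14 summits in Maml3 (42.9%, 17.7 to 71.1), 1 of 13 in Gse1 and 2 of 20 in Nav2. In Maml3, 6 of the 8 were outside the promoter class, 3 of them in the run at the start.

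TBX3 regions overlapped 29 of the 73 summits (39.7%, 28.5 to 51.9), against 27% of all peaks. They overlapped 26 of the 66 non-promoter summits (39.4%, 27.6 to 52.2), against 22.3% of non-promoter peaks in gene bodies. Gse1 accounted for 11 of the 29, with 64.7% of its summits (38.3 to 85.8). Nav2 followed with 9 (42.9%, 21.8 to 66.0), Maml3 with 5 (31.2%, 11.0 to 58.7) and Cdkal1 with 4 (21.1%, 6.05 to 45.6). In Gse1, 9 of the 11 also had H3K9ac, and in Maml3 all 5, whereas in Nav2 3 of 9 and in Cdkal1 1 of 4 did. Outside TBX3 regions, H3K9ac lay at 5 of 6 summits in Gse1, 7 of 11 in Maml3, 2 of 12 in Nav2 and 2 of 15 in Cdkal1. Gse1 thus had high H3K9ac and high TBX3 overlap, but its H3K9ac was much alike inside and outside TBX3 regions. A link between H3K9ac and TBX3 regions was not tested.

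**Figure D4:**
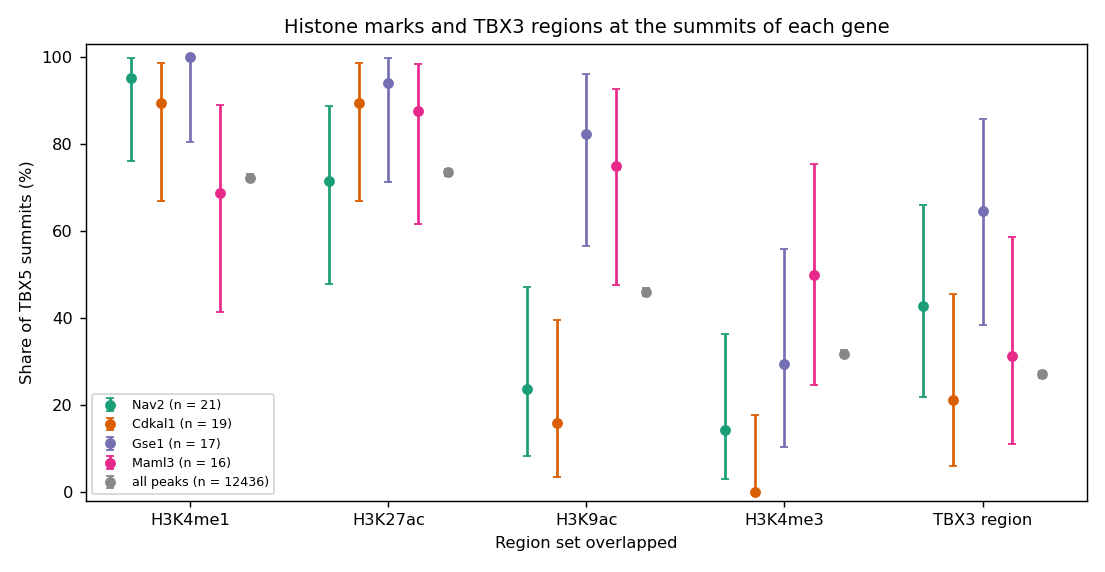
Share of TBX5 summits in percent (vertical axis) that overlapped each histone mark or TBX3 regions (horizontal axis) in Nav2, Cdkal1, Gse1 and Maml3 and among all 12436 peaks, with exact 95% intervals as bars. For H3K9ac, Gse1 (82.4%) and Maml3 (75.0%) lie above all peaks (46%), and Nav2 (23.8%) and Cdkal1 (15.8%) below.

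A fold rests on a fragment count and a background, which were looked at separately. The median count of ChIP fragments at a summit was 31 in Cdkal1, 23 in Nav2, 23 in Gse1 and 22 in Maml3, against 22 over all peaks. The median background was 2.83 fragments in Nav2 and Cdkal1, as over all peaks, and higher in Maml3 (3.81) and Gse1 (4.24). Beside all peaks, the lower folds of Gse1 and Maml3 thus went with higher background at like fragment counts, and the higher folds of Cdkal1 with more fragments at the same background. Over the 73 summits, those with H3K9ac had a median of 24.5 fragments over a background of 4.14, and those without it 22 over 2.72. Over all peaks the values were 23 over 3.53 with H3K9ac and 20 over 2.12 without. Higher background thus moved with H3K9ac, and its part in the difference between the genes was not tested.

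**Figure D5:**
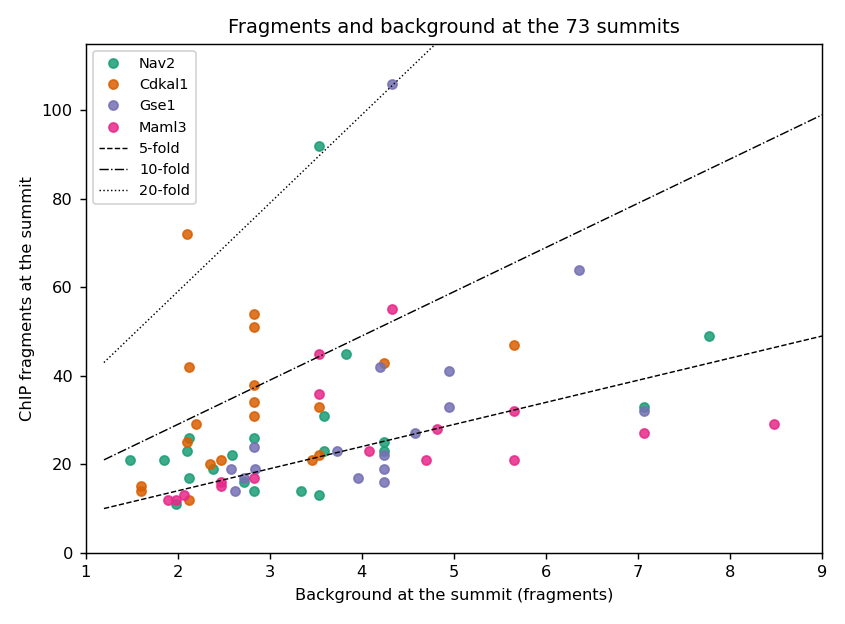
ChIP fragments at the summit (vertical axis) against background at the summit in fragments (horizontal axis) for the 73 summits, coloured by gene, with lines of equal fold. Most Cdkal1 summits lie above the 5-fold line, and several Maml3 summits lie below it at backgrounds of over 5 fragments.

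The genes closest to the members in summit number were set beside them. Esrrg, an orphan nuclear receptor of oxidative metabolism, had 19 summits with a median fold of 5.65, 16 with H3K27ac, 11 with H3K9ac and 4 in TBX3 regions. Cacna1c, the L-type calcium channel, had 16, of which 4 were promoter-class, 15 had H3K27ac, 10 had H3K9ac and 5 lay in TBX3 regions. Rbm20, a splicing regulator of titin, had 16, of which 15 had H3K27ac, 12 had H3K9ac and 8 lay in TBX3 regions. Ror1, a receptor of the Wnt pathway, had 14 summits, 8 with H3K27ac and 2 with H3K9ac, and Tns1, a focal adhesion protein, had 14, all with both marks. The median fold of these 5 genes ran from 5.65 to 6.40, below that of Cdkal1 and above those of Gse1 and Maml3.

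Relatives and partners of the 4 genes were read from lists chosen with earlier results of these data known, and that they have fewer summits than the members follows from how the members were chosen. A gene counts as bound here with at least 1 summit in the window, as 30.1% of protein-coding genes are. Both other neuron navigators were bound, Nav3 with 5 summits and Nav1 with 3. The strongest Nav3 summit had 23.8-fold enrichment (18.4 to 30.3), and the strongest of Nav1 had 10.8-fold (8.03 to 14.3). Cdk5rap1, the mitochondrial relative of Cdkal1, was not bound, and the nearest summit lay 15042 bp from it.

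Of 11 other genes of the LSD1-CoREST-HDAC complexes of Gse1, 5 were bound, by 1 or 2 summits each. They were the demethylase gene Kdm1a, the CoREST genes Rcor1 and Rcor3, the histone-binding subunit gene Phf21a, and Zmym2. Rcor1 had the strongest, an 8.44-fold summit (5.37 to 12.7), and the others did not exceed 4.20-fold. In 4 of the 5 the strongest summit was in the promoter class, the exception being Rcor1. The deacetylase genes Hdac1 and Hdac2 were unbound, as were Rcor2, Hmg20b, Zmym3 and Rreb1.

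Of 14 other genes of mastermind proteins and the Notch transcription complex, 10 were bound. The mastermind gene Maml2, of nearly the same length as Maml3, had 3 summits, the strongest of 9.63-fold (6.82 to 13.2), and the shorter Maml1 had 1 of 4.04-fold. Rbpj, which encodes the DNA-binding factor of the pathway, had 3 summits with up to 8.82-fold (5.67 to 13.2). Crebbp, a histone acetyltransferase gene, had the strongest of the list at 17.3-fold (13.0 to 22.5). Among Notch targets, Hes1 had 3 summits and Hey1, Hey2 and Heyl 1 each, with folds of 7.22, 3.35, 5.07 and 6.41 at the strongest. Notch2 had 3 summits and Ep300 had 1, while Notch1, Notch3, Notch4 and Nrarp had none. Binding below the authors' threshold was not detectable at this depth.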

How the data were processed

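The authors processed the reads with Bowtie2, SAMtools, MACS2 and ChIPseeker on mm10, per the submitters' processing notes, and no versions or settings are given there. Fragments of 200 to 650 bp were sequenced from 1 end for 50 bases, per the labels' protocols. The authors' deposited files give, for each peak of 1 call on the pooled samples, a fold ratio, −log10 p, −log10 q and a score (10 times −log10 q). These describe peaks within this list only. The same 12436 peaks stood in all 3 deposited lists. The sources used here do not give the reads of each sample, so precision rests on the fragments at each summit. A peak counted as marked if either of a pair of region files marked it.

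Fragments and background at each summit were solved from the deposited fold, (fragments + 1)/(background + 1), and −log10 p as an upper Poisson tail (largest misfit 0.000242). Tested on simulated data, 100% of 493 peaks were recovered. RefSeq genes (GRCm38.p6) on chromosomes 1 to 19 and X were used. Genes that start below 3 Mb were left out, because such starts belong to unplaced scaffolds. The start that the authors' signed distance points to was sought on both strands among RefSeq starts by exact position. Where none matched, a position that the distances of several summits of the gene shared was taken as an unlisted start. This inference gave the start of 27 of the 73 summits. For each member, the 10 next longer and 10 next shorter coding genes served as neighbours in length. No test was made, because no replicate values exist and the members were chosen for their counts. Named genes are the members, genes with at least 14 summits, the top neighbour in length and fixed lists of relatives and partners. For each member the strongest and weakest summit and those of the promoter class are given. Summits in TBX3 regions are given by count, and only some of them singly. Members and lists were chosen with earlier results of these data known. 1 gene of the LSD1 list as first drawn up was left out before counting and is not reported here. Alternatives were the gene body alone, 50 kb, any peak overlap, stronger peaks, non-promoter peaks, both region files (for H3K27ac) and merged summits. Tables were made with pandas 2.3.3, numpy 2.4.6 and scipy 1.17.1 under Python 3.11.15, and plots with matplotlib 3.10.9.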

Additional observations from a re-analysis of the deposited data

How the results depend on the processing

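Counts, spacing, shares and median folds were recomputed under 112 alternatives in all, of which 88 stayed within the limit set (1.5 times for counts, spacing and folds, the exact 95% interval for shares). With −log10 q of at least 10, summits fell to 10 in Nav2, 12 in Cdkal1, 6 in Gse1 and 4 in Maml3, so that Cdkal1 ranked first of all genes, Nav2 at 2, Gse1 tied at 8 and Maml3 tied at 49. Median spacing was then 38.2 kb in Nav2, 56.0 kb in Cdkal1 and 93.1 kb in Maml3. H3K27ac then covered 100% of the summits left in Cdkal1, Gse1 and Maml3 but 60.0% of those in Nav2 (71.4% of all its summits), and the median fold was 7.66 in Gse1 and 9.16 in Maml3. With folds of at least the median of all peaks, the counts were 12 in Nav2, 6 in Gse1 and 3 in Maml3, and spacing was 35.3 kb in Nav2, 24.5 kb in Cdkal1 and 142 kb in Maml3. H3K27ac was then 100% in Gse1 and Maml3 and 58.3% in Nav2, and the median fold was 7.66 and 10.2. These settings keep stronger peaks by construction. Without promoter peaks, spacing in Gse1 was 31.7 kb, because its run of 4 was left out. In the gene body alone, H3K27ac in Gse1 was 100%, because the unmarked summit lies outside it. No paired analysis was possible because the peaks were called on pooled samples and the input carries no replicate number. For the same reason no replicate could be left out.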
